A study of Mus musculus with 8 samples.

Results

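The 10 genes in view here belong to the main guidance systems of axons and neural crest, and their expression was followed in cultured sacral neural crest cells of Sox10 mutant and wild-type mouse embryos. They were the semaphorin Sema5a, the plexin Plxnc1 and the neuropilin Nrp2; the netrins Ntn1 and Ntn4 and the netrin receptor Unc5b; the Slit ligand Slit3; and the Eph receptor Epha4 with the ephrins Efnb3 and Efna2. They were chosen by gene symbol, as probe sets of the array paired with that symbol alone, and all 10 were present with 1 probe set each among the 6855 genes tested. The study has 8 Affymetrix Mouse Gene 1.0 ST arrays, 4 from Sox10 Dom/Dom embryos and 4 from wild-type embryos, numbered in both genotypes as replicates 1 to 4. Dom is a frameshift allele of Sox10, the gene of a transcription factor of the neural crest and its glia, and Dom/Dom embryos carry it on both copies. In both genotypes the neural tube caudal to somite 24 was dissected at embryonic day 9.5 and cultured in DMEM/F12 with 10% serum for 24 hours. The explant was then removed, and 250 ng of total RNA from the cells that had emigrated was used for labelling. Each array therefore averages over all cells in a dish, so that fewer cells of a type and less RNA per cell cannot be told apart. No label ties a replicate to its own embryo, litter or culture, and every n below counts arrays. The p-values cover no more than the spread among these arrays, which may be technical.

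Guidance cues steer growing axons and migrating crest cells by attraction or repulsion at their leading edge. Secreted and membrane-bound semaphorins act through plexins, in part with neuropilins as co-receptors. Netrins are laminin-related proteins that attract through Dcc and repel through Unc5 receptors, and Slits repel through Robo receptors. Ephrins are ligands held at the cell surface, which signal to Eph receptor tyrosine kinases on a neighbouring cell. In the trunk, ephrins and class 3 semaphorins are known to confine crest cells to the anterior part of each somite, Slits to keep trunk crest out of the gut, and netrins to draw crest cells into the gut wall.

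Because the mutated factor binds DNA, the 250 bases before the start of each gene were read for the core letters of SOX sites, ACAAAG and ACAATG, on both strands. ACAAAG overlaps, on its other strand, with the site of TCF and LEF factors. Sequences are those before RefSeq starts (GRCm38.p6). The promoter sequences at hand covered 8 of the 10 genes, all but Ntn1 and Efnb3. The 4 shown are those of the 2 genes that lay on one side of wild type in all 4 same-numbered pairs and of 2 ligands that varied with replicate number, 5′ to 3′ with core letters in capitals.
Sema5a, chr15:32244563-32244812, plus strand: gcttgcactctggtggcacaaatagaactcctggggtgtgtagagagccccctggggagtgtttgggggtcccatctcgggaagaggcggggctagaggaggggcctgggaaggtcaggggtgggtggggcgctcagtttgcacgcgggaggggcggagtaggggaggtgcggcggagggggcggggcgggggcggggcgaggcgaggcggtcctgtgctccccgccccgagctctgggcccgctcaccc
Plxnc1, chr10:94944846-94945095, minus strand: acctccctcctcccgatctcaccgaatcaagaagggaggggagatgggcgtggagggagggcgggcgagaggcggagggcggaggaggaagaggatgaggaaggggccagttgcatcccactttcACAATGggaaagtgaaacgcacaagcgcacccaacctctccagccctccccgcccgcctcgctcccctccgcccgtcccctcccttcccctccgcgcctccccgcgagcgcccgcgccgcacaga
Ntn4, chr10:93640799-93641048, plus strand: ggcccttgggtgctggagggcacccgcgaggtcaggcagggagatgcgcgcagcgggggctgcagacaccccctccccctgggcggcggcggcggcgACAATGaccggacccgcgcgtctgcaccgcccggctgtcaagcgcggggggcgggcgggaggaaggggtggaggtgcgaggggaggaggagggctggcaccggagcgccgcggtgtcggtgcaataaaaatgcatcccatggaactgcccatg
Efna2, chr10:80179232-80179481, plus strand: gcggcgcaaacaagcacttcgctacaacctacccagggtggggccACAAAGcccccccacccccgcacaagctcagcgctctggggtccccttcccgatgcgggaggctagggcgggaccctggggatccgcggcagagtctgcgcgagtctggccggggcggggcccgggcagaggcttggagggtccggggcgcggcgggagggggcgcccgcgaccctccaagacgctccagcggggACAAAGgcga
Plxnc1 holds ACAATG 125 bases before its start, Ntn4 holds ACAATG 153 bases before, and Efna2 holds ACAAAG 205 and 10 bases before. Sema5a, Nrp2, Unc5b, Slit3 and Epha4 hold none of these letters in the window. That makes 3 of 8 genes, beside 22.6% of the 5293 tested genes with such a sequence. A match of 6 letters is a description of the sequence and not a binding site.

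Sox10 itself averaged 10.50 ± 0.40 log2 units in Dom/Dom cultures and 11.69 ± 0.18 in wild-type cultures (SD, n = 4 each). The genotypes did not overlap, and Sox10 passed the test for genotype described below (limma adjusted p = 0.0168, and 0.0312 with replicate number as a block). A Dom transcript is made, and so its level is no check on the genotype labels. Of the crest markers 10 of 15 were measured, with mean log2 levels per array of 11.28 to 11.48 in Dom/Dom and 11.56 to 11.76 in wild type. That list holds Sox10 itself; 5 of the 10 lay above 0 in the difference and 5 below, with a median of -0.08. The 5 of 9 glial markers measured averaged 9.41 to 9.81 in Dom/Dom and 10.75 to 11.41 in wild type. For 6 of 11 markers of somite and mesenchyme the means were 8.45 to 8.85 in Dom/Dom and 8.30 to 8.53 in wild type, and for 5 of 14 neuronal markers 10.56 to 11.16 in Dom/Dom and 10.87 to 11.55 in wild type. The 2 of 7 smooth muscle markers measured, Des and Myocd, averaged 10.04 to 10.51 in Dom/Dom and 9.55 to 9.93 in wild type, with the genotypes apart. Epithelial markers (5 of 9) averaged 9.88 to 10.19 in Dom/Dom and 9.94 to 10.45 in wild type, blood and macrophage markers (3 of 8) 9.13 to 9.74 in Dom/Dom and 9.39 to 9.90 in wild type, and the endothelial marker Pecam1 (1 of 8) 8.05 to 8.31 in Dom/Dom and 8.01 to 8.36 in wild type. Of 12 neural tube markers 0 were measured, so tissue of the explant could not be looked for by them. The part of other cell types in the results below was not tested. The values carry no detection calls.

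None of the 10 guidance genes passed the test for genotype (limma, Benjamini-Hochberg adjustment over all 6855 genes, threshold 0.05), against 33 of all genes tested (0.481%). The count over all genes was 29 to 51 without an array of replicates 1 or 2 and 10 to 12 without one of replicates 3 or 4, with 0 of the 10 genes in each of these fits. With the replicate number as a block, 0 of 10 passed as well, against 1.5% of all genes. At an unadjusted p under 0.05 there was 1 of the 10, Sema5a, beside 6.11% of all genes, and with the block there were 2, Sema5a and Plxnc1, beside 13.9%. Differences, given on the log2 scale as Dom/Dom minus wild type, ran from -0.17 to 0.32 with a median of 0.03, where all genes had a median of -0.00095. In absolute size the median was 0.113 for the 10 genes and 0.0604 for all genes, and the median SD within a genotype was 0.211 for the 10 genes and 0.145 for all. The plot of the 10 genes by array shows how far the genotypes overlap.

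**Figure D1:**
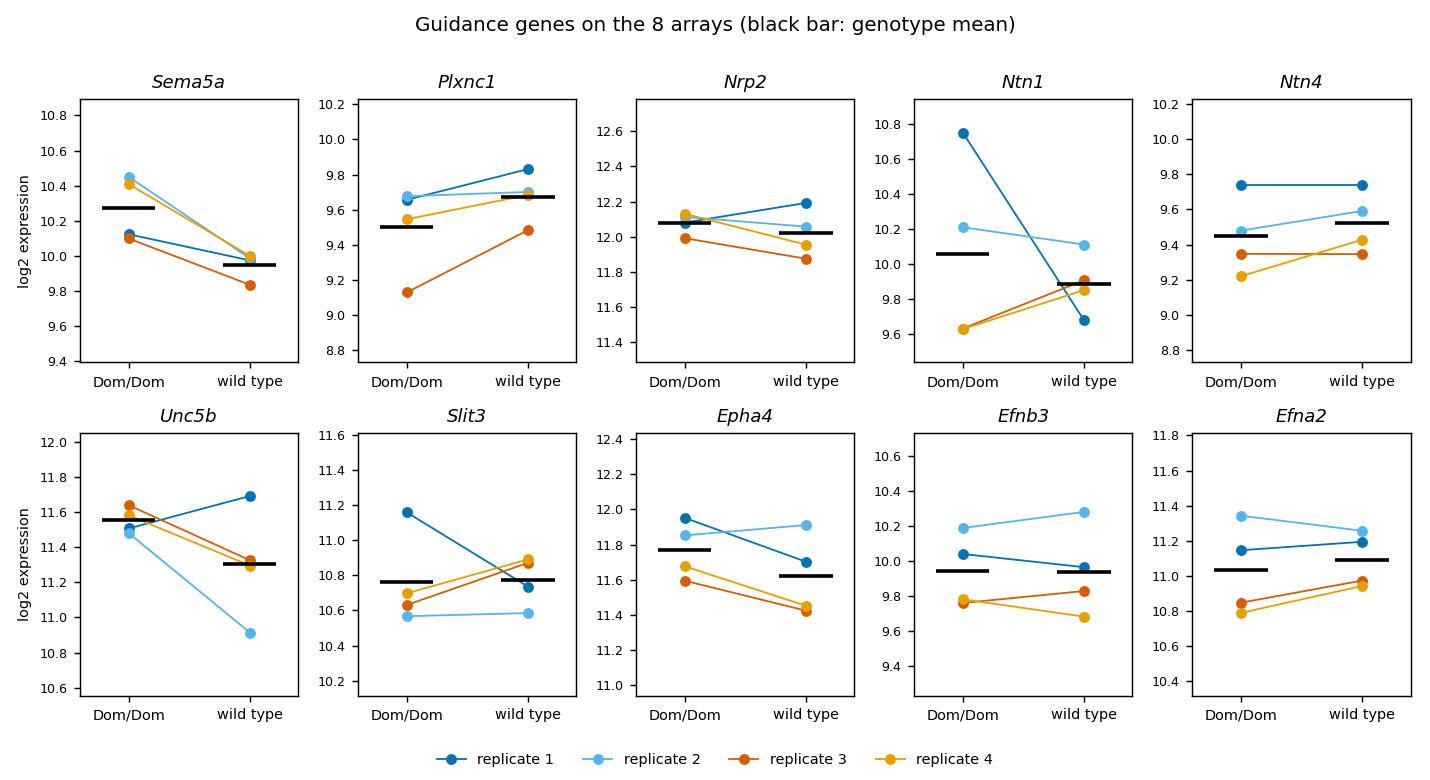
Log2 expression of the 10 guidance genes in Dom/Dom (left) and wild-type (right) cultures, 1 point per array, coloured by replicate number, with lines joining same-numbered arrays and black bars at the mean of 4; every panel spans about 1.5 log2 units on its own axis. Sema5a is the single gene whose Dom/Dom arrays (10.10 to 10.45) all lie above its wild-type arrays (9.84 to 10.00).

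Among the semaphorin genes, Sema5a encodes a transmembrane semaphorin with thrombospondin repeats that can attract or repel depending on its surroundings. Its log2 levels were 10.12, 10.45, 10.10 and 10.41 in Dom/Dom replicates 1 to 4, against 9.97, 9.99, 9.84 and 10.00 in wild type. The Dom/Dom arrays were all above the wild-type arrays, which 3.78% of all genes showed in one direction or the other and 1.18% in this direction. The mean was 10.27 ± 0.18 in Dom/Dom cultures and 9.95 ± 0.08 in wild-type cultures (SD, n = 4 each), a fold of 1.25 with a 95% interval of 0.10 to 0.54 for the log2 difference. The gene did not pass over all genes (limma adjusted p = 0.360; 0.0813 with the replicate block). Same-numbered arrays differed by 0.15, 0.46, 0.26 and 0.41, higher in Dom/Dom in 4 of 4 pairs. Replicates 2 and 4 stood highest in Dom/Dom, and in wild type replicate 3 was apart from the other 3.

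Plxnc1, the receptor of the membrane-anchored semaphorin Sema7a, lay the other way. It stood at 9.66, 9.68, 9.13 and 9.55 in Dom/Dom replicates 1 to 4, against 9.83, 9.70, 9.48 and 9.68 in wild type. The genotypes overlapped, since replicates 1, 2 and 4 of Dom/Dom were above replicate 3 of wild type, though within each pair Dom/Dom was lower, with differences of -0.18, -0.02, -0.35 and -0.14. The difference of -0.17 had a 95% interval of -0.46 to 0.11 (limma adjusted p = 1.00), and of -0.33 to -0.02 with the replicate block (adjusted p = 0.302). Sema5a and Plxnc1 were thus the 2 of 10 genes with all 4 pairs on one side, a count to set beside 21.1% of all genes. Nrp2, a co-receptor for class 3 semaphorins, had log2 levels of 12.08, 12.11, 11.99 and 12.13 in Dom/Dom and of 12.19, 12.06, 11.87 and 11.95 in wild type. Its difference of 0.06 had a 95% interval of -0.13 to 0.25, the narrowest of the 10, and all 8 arrays lay within 11.87 and 12.19.

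Ntn1, the secreted netrin of floor plate and gut wall, was the most variable of the 10 genes in Dom/Dom. Its log2 levels were 10.75, 10.21, 9.63 and 9.63 in Dom/Dom replicates 1 to 4, against 9.68, 10.11, 9.91 and 9.85 in wild type. The mean was 10.06 ± 0.54 in Dom/Dom cultures and 9.89 ± 0.18 in wild-type cultures (SD, n = 4 each). Dom/Dom minus wild type was 1.07 in pair 1 and 0.10 in pair 2, but -0.28 and -0.22 in pairs 3 and 4. Its overall difference of 0.17 rested on Dom/Dom replicate 1, without which it was -0.0641, and the 95% interval of -0.33 to 0.66 was the widest of the 10 (limma adjusted p = 1.00). Ntn4, a netrin that binds laminin chains in basement membranes, had 9.74, 9.48, 9.35 and 9.22 in Dom/Dom and 9.74, 9.59, 9.34 and 9.43 in wild type. Its groups overlapped almost wholly, with a difference of -0.08 and a 95% interval of -0.36 to 0.20.

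Unc5b, a repulsive netrin receptor also known from blood vessels, stood at 11.51, 11.48, 11.64 and 11.58 in Dom/Dom replicates 1 to 4, against 11.69, 10.91, 11.33 and 11.30 in wild type. The Dom/Dom arrays lay close together (SD 0.07), while wild type had its lowest array in replicate 2 and its highest in replicate 1 (SD 0.32). Dom/Dom was higher in 3 of 4 pairs, by 0.57, 0.31 and 0.29 in pairs 2 to 4, and lower in pair 1 (-0.19). The difference of 0.25 had a 95% interval of -0.06 to 0.56 (limma adjusted p = 1.00) and was 0.115 without wild-type replicate 2 and 0.374 without wild-type replicate 1. Slit3, a secreted Robo ligand, had 11.16, 10.57, 10.63 and 10.70 in Dom/Dom, against 10.74, 10.59, 10.87 and 10.89 in wild type. Dom/Dom replicate 1 was the highest array of that gene and Dom/Dom replicate 2 the lowest. The difference was -0.01, with a 95% interval of -0.30 to 0.29.

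Epha4, a receptor that binds ephrins of both classes, had log2 levels of 11.95, 11.85, 11.59 and 11.68 in Dom/Dom replicates 1 to 4, against 11.70, 11.91, 11.42 and 11.45 in wild type. Dom/Dom was higher in pairs 1, 3 and 4, by 0.25, 0.17 and 0.23, and lower in pair 2 (-0.06). The difference of 0.15 had a 95% interval of -0.13 to 0.42, and of -0.01 to 0.30 with the replicate block (limma adjusted p = 1.00, and 0.379 with the block). Efnb3, a transmembrane ephrin of the midline, stood at 10.04, 10.19, 9.76 and 9.78 in Dom/Dom and at 9.96, 10.28, 9.83 and 9.68 in wild type. Its difference was 0.0036, with a 95% interval of -0.31 to 0.31 that narrowed to -0.13 to 0.13 with the block. Efna2, a lipid-anchored ephrin, had 11.15, 11.34, 10.85 and 10.79 in Dom/Dom and 11.19, 11.26, 10.97 and 10.94 in wild type. The genotypes differed by -0.06 (95% interval -0.35 to 0.23). For both ephrins the range of the means over replicate numbers was wider than the step between genotypes. The same held for every other gene of the 10 except Sema5a (0.25 against 0.32). A range over 4 means and a difference of 2 means are unlike measures.

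**Figure D2:**
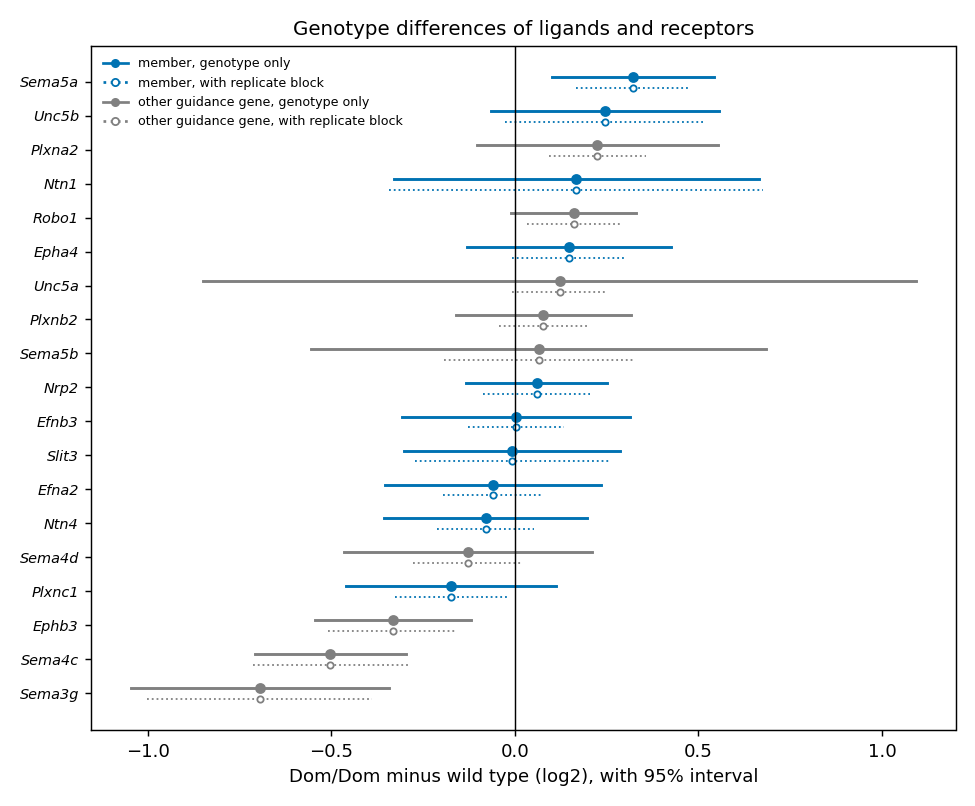
Differences between Dom/Dom and wild type (log2, horizontal axis) of the 19 measured guidance ligands and receptors, the 10 followed here in blue and the other 9 in grey, with 95% intervals from the fit on genotype alone (filled, solid) and with the replicate number as a block (open, dotted). The intervals of Sema5a, Ephb3, Sema4c and Sema3g leave out 0 in both fits, and none of these genes passed the adjusted threshold in either.

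How the genes varied among arrays of one genotype was tested with a moderated F test on the replicate number beside genotype. Of the 10, 5 passed, against 24.6% of all genes: Efnb3 (limma adjusted p = 0.0193), Efna2 (0.0259), Ntn4 (0.0295), Plxnc1 (0.0404) and Epha4 (0.0487). Without the dimmest 25% of genes the same 5 passed, beside 34.6% of the genes kept. Averaged over genotypes, Efnb3 stood at 10.00, 10.23, 9.79 and 9.73 in replicates 1 to 4, and Efna2 at 11.17, 11.30, 10.91 and 10.87. Ntn4 stood at 9.74, 9.54, 9.35 and 9.32, Epha4 at 11.83, 11.88, 11.51 and 11.56, and Plxnc1 at 9.74, 9.69, 9.31 and 9.61. In Efnb3, Efna2, Ntn4 and Epha4 the 4 arrays of replicates 1 and 2 were all above the 4 of replicates 3 and 4, a grouping taken from the data and not from the labels. Such separation in this direction was found for 14% of all genes.

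**Figure D3:**
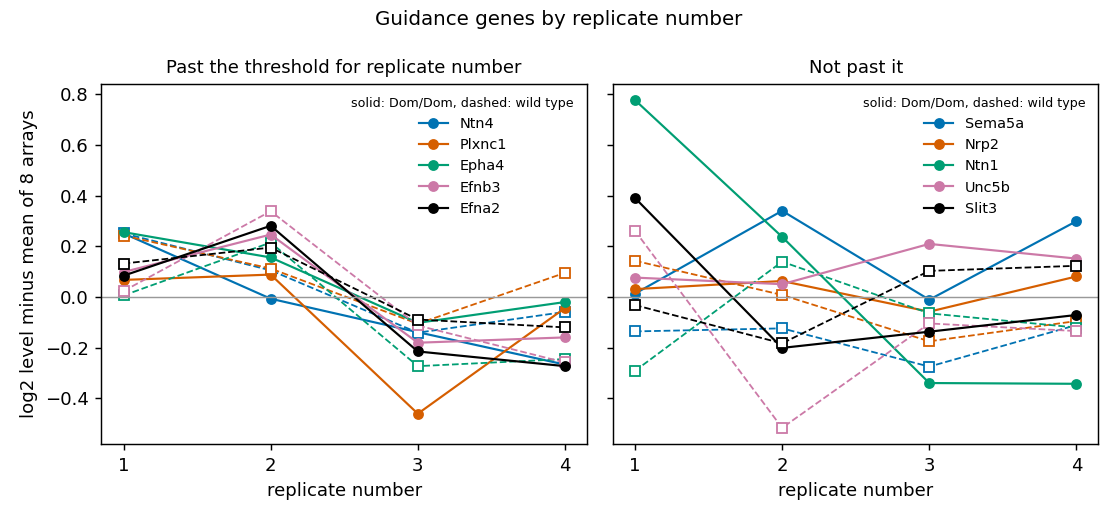
Log2 level minus the mean of all 8 arrays (vertical axis) by replicate number (horizontal axis, an arbitrary order) for the 5 genes past the threshold for replicate number (left) and the other 5 (right), with Dom/Dom as filled points and wild type as open squares. In the left panel Efnb3, Efna2, Ntn4 and Epha4 lie above their mean or close to it in replicates 1 and 2 in both genotypes. In replicates 3 and 4 they lie below it. On the right Ntn1 and Slit3 are highest in Dom/Dom replicate 1, and Unc5b is lowest in wild-type replicate 2.

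This result was sensitive to single arrays. Without Dom/Dom replicate 1, 4 genes passed, beside 27.7% of all genes: Efnb3 and Efna2 again, with Unc5b (adjusted p = 0.0277) and Ntn1 (0.0444), while Plxnc1 (0.0508), Epha4 (0.0535) and Ntn4 (0.0615) did not. Without wild-type replicate 1, the 5 genes passed together with Ntn1 (0.00988) and Slit3 (0.0205), beside 33.5% of all genes. A single gene passed without Dom/Dom replicate 2 (Epha4, beside 9.56% of all genes) or wild-type replicate 2 (Efna2, beside 12.7%). Without any one of the 4 arrays of replicates 3 and 4 the count was 0, and the share of all genes was between 0.0146% and 2.19%. With each array's median subtracted Efnb3 alone passed, beside 14.5% of all genes. Beside these counts, the glial marker list averaged 9.41, 9.68, 9.71 and 9.81 in Dom/Dom replicates 1 to 4 and 10.77, 10.75, 11.41 and 11.39 in wild type, and the neuronal list 11.16, 10.56, 10.85 and 10.95 in Dom/Dom and 10.87, 11.11, 11.49 and 11.55 in wild type. The part of these markers in the replicate differences was not tested.

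Sema5a, Nrp2, Ntn1, Unc5b and Slit3 did not pass for replicate number (adjusted p from 0.151 to 0.404). By level over the 8 arrays, the tested gene most like each of the 10 had a Pearson r from 0.927 for Serpinb5 with Slit3 to 0.992 for Cactin with Efna2. The others were Mboat1 for Sema5a (0.944), Ncoa2 for Plxnc1 (0.976), Hspa2 for Nrp2 (0.979), Odf1 for Ntn1 (0.972), Teddm1a for Ntn4 (0.977), Lmod1 for Unc5b (0.946), Fzd7 for Epha4 (0.975) and Acin1 for Efnb3 (0.989). Each is the highest value over all tested genes, from arrays that share replicate numbers, and describes likeness alone.

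Of 116 genes listed for these systems and their intracellular partners, 35 were measured, the 10 among them, and 0 passed for genotype in either fit. At an unadjusted p under 0.05 there were 4 of 35 without the block, all of them ligands or receptors, beside 6.11% of all genes, and 9 with it, beside 13.9%. Of 5 measured semaphorins 3 were among these 4, Sema5a higher and Sema3g and Sema4c lower in Dom/Dom. Sema3g, a secreted class 3 semaphorin, stood at 8.61, 8.41, 8.64 and 8.38 in Dom/Dom replicates 1 to 4, against 8.96, 8.84, 9.57 and 9.45 in wild type, with the genotypes fully apart. Its difference of -0.69 (95% interval -1.05 to -0.34) did not pass (limma adjusted p = 0.120; 0.0633 with the replicate block), except without wild-type replicate 2 (-0.815, adjusted p = 0.0462) and with array weights (-0.859, 0.0101).

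Sema4c, a transmembrane semaphorin that signals through Plxnb2 and was singled out after its values were seen, lay closest to the threshold. It had 11.49, 11.41, 11.23 and 11.23 in Dom/Dom against 11.80, 11.73, 12.01 and 11.83 in wild type, again with no overlap. The mean was 11.34 ± 0.13 in Dom/Dom cultures and 11.84 ± 0.12 in wild-type cultures (SD, n = 4 each), a difference of -0.50 (limma adjusted p = 0.0512; 0.0544 with the block). It passed in 5 of the 16 alternative settings tried, without Dom/Dom replicate 1 (adjusted p = 0.0372), with array medians subtracted (0.0435), without dim genes (0.0485), with a trended prior (0.0485) and with array weights (0.00367); in the other 11 the adjusted p ran up to 0.274. Its receptor Plxnb2 stood at 12.65 ± 0.13 in Dom/Dom cultures and 12.58 ± 0.19 in wild-type cultures (SD, n = 4 each; limma adjusted p = 1.00).

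The Eph receptor Ephb3 was the fourth of these genes, at 9.59, 9.90, 9.53 and 9.61 in Dom/Dom against 9.88, 10.00, 10.01 and 10.06 in wild type. It overlapped through Dom/Dom replicate 2 alone and was lower in 4 of 4 pairs (difference -0.33, limma adjusted p = 0.279; with array weights 0.0251). Robo1, a Slit receptor, was higher in 4 of 4 pairs with the genotypes apart, at 12.40 ± 0.09 in Dom/Dom cultures and 12.24 ± 0.06 in wild-type cultures (SD, n = 4 each; adjusted p = 0.896). Plxna2, a partner of neuropilins, stood at 12.30 ± 0.21 in Dom/Dom cultures and 12.07 ± 0.28 in wild-type cultures (SD, n = 4 each), higher by 0.18, 0.11, 0.27 and 0.34 in pairs 1 to 4 (adjusted p = 1.00; 0.128 with the block). Sema3g, Ephb3, Robo1 and Plxna2 were named for the largest difference outside the 10 in their lists, so their values are selected. Of the 35 genes, 2 had all Dom/Dom arrays higher and 2 all lower, beside 3.78% of all genes in either direction. All 4 pairs lay one way in 11 of the 35, beside 21.1% of all genes.

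Unc5a, the other Unc5 receptor measured, moved with replicate number more than any of the 35 genes. Its log2 levels were 11.05, 11.83, 10.07 and 10.25 in Dom/Dom replicates 1 to 4, against 10.98, 11.69, 10.04 and 10.01 in wild type. Replicate 2 stood over 1 log2 unit above replicates 3 and 4 in both genotypes (limma adjusted p = 0.00328 for replicate number), and the genotypes differed by 0.12 (adjusted p = 1.00). In all, 13 of the 35 genes passed for replicate number, beside 24.6% of all genes. The 16 intracellular partners, which relay these signals inside the cell, differed by between -0.15 and 0.15, and 0 passed. At an unadjusted p under 0.05 there were 0 without the block and 2 of 16 with it, beside 13.9% of all genes. The one with the largest difference was the cofilin kinase gene Limk2, at 11.36 ± 0.10 in Dom/Dom cultures and 11.21 ± 0.15 in wild-type cultures (SD, n = 4 each; adjusted p = 1.00).

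**Figure D4:**
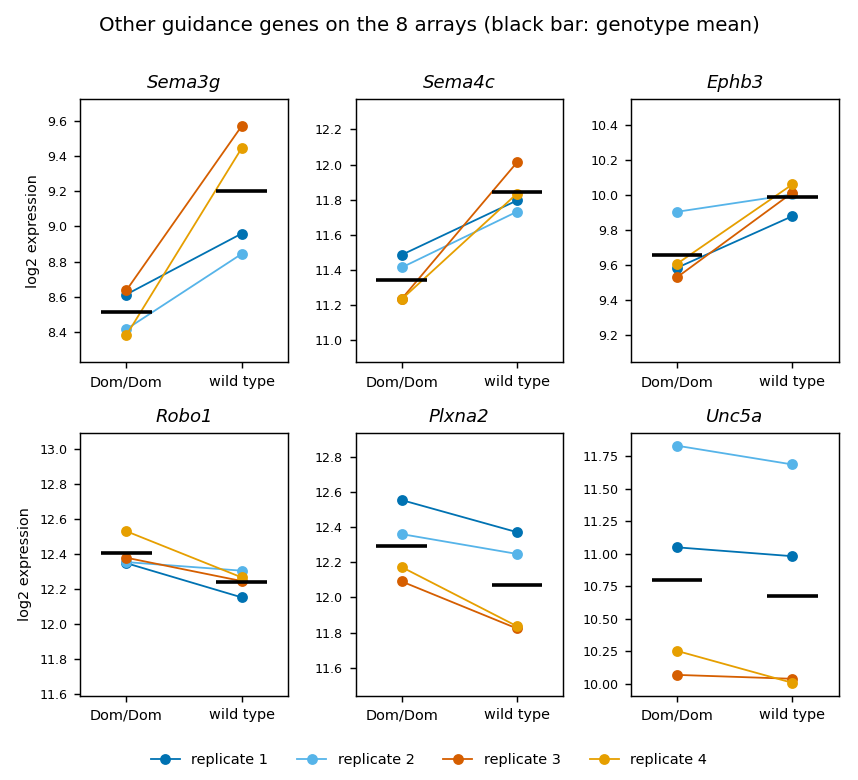
Log2 expression of 6 other guidance genes in Dom/Dom (left) and wild-type (right) cultures, 1 point per array, with lines joining same-numbered arrays, black bars at the mean of 4 and a separate axis for each panel. Dom/Dom lies below wild type in all 4 pairs of Sema3g, Sema4c and Ephb3, and Unc5a is spread by replicate number in both genotypes.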

How the data were processed

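RNA of Dom/Dom and wild-type cultures was measured on 8 arrays, 4 of each genotype, and the titles gave each array's genotype and replicate number. The authors deposited log2 values for each probe set, made with RMA and Partek per the submitters' processing notes; versions and settings are not given in the sources used here. By design, RMA normalises between arrays and compresses differences of dim probe sets. The number of arrays limits the precision.

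Of 16381 probe sets, 7416 had 1 gene symbol in the platform annotation, 509 several and 8456 none. The brightest single-symbol probe set of each gene was kept (6855 genes, 6829 matched to RefSeq by gene ID). Of these, 97.8% lay on chromosomes 1 and 10 to 16, and all 6855 were tested. Genes without such a probe set were not analysed and count here as not measured, which says nothing about their expression. The test was limma 3.58.1 (R 4.3.3) on genotype alone, two-sided, adjusted over all genes. The steps were tested on simulated data.

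Same-numbered arrays deviated together from their genotype means (correlations 0.465, 0.577, 0.607 and 0.668, all over 0.1), which points to pairs, from the data and not from a label. Of the differently numbered combinations, 4 also exceeded 0.1, those of replicates 1 with 2 (0.14 and 0.107) and of 3 with 4 (0.21 and 0.381). Every combination of replicate 1 or 2 with 3 or 4 was negative, from -0.183 to -0.561. The correlations thus also follow a grouping of replicates 1 and 2 against 3 and 4. The main test does not use the pairs, and a blocked fit on replicate number is the alternative. The members, lists and tests were chosen with earlier results of these data known. Genes named are the 10, Sox10, listed guidance genes past the threshold or, in a list without one, the gene outside the 10 with the largest difference, and the gene most like each of the 10; any other was chosen after its values were seen.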

Additional observations from a re-analysis of the deposited data

Results flagged for a closer look

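Sema5a was low in wild-type replicate 3, at 9.84 against 9.97 to 10.00 in the other 3 wild-type arrays, a gap that took most of the range of that group. Without this array its difference was 0.28 on the log2 scale and its limma adjusted p 0.999. In that fit the count over all genes fell as well, to 10 from 33. Leaving out Dom/Dom replicate 2 instead gave a smaller difference of 0.262, with a limma adjusted p of 0.611. Of 58 sets of 4 arrays searched for the named genes and the array medians, 1 held such a value, where 2.9 are expected by chance.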

How the results depend on the processing

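In each of 16 alternative settings 0 of the 10 genes passed for genotype. Sema5a stayed higher in Dom/Dom by 0.26 to 0.38, with adjusted p from 0.0813 with the replicate block to 0.999. The block changed no call of the 10 genes and moved the count over all genes to 103 (31 higher), against 33 without it. Leaving out 1 array gave 10 to 51 of all genes, 0 of the 10, 0 to 1 of the 35 wider guidance genes, and 0 to 7 of the 10 for replicate number (0.0146% to 33.5% of all genes). With every probe set tested, 4 of all 16381 probe sets passed, a count of probe sets and not of genes. The count over all genes was 190 with array weights. Wider guidance genes numbered 1 with array medians subtracted, without dim genes or with a trended prior. The count over all genes in these 3 settings was 47, 39 and 42, also above the 33 of the main test. With array weights 3 wider guidance genes passed, beside the 190 of all genes. For replicate number the count of the 10 was 0 with every probe set tested (5.2% of all features), 2 after quantile normalization (15.6% of all genes) and 1 with array medians subtracted (14.5%), so that the share of all genes fell in the same settings. The count stayed at 5 without dim genes, where the share was 34.6% of the genes kept. The sign of 5 of the 10 differences turned in at least 1 setting: leaving out 1 array gave -0.0641 to 0.309 for Ntn1, -0.0819 to 0.117 for Efnb3, -0.139 to 0.0585 for Slit3 and -0.164 to 0.0206 for Efna2. Efnb3 was also at -0.0382 after quantile normalization and -0.0575 with array medians subtracted, Nrp2 at -0.00187 with medians subtracted and Ntn1 at -0.0438 with array weights. Subtracting medians shifted the median difference of all genes to -0.062. The cause of these shifts was not tested. Signal over background could not be assessed without detection calls.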
